A study of Homo sapiens with 26 samples.

Results

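The comparison described here sets ribosome footprint libraries of HEK293T cells treated with Ribo-Zero Gold against libraries of the same cells from which no ribosomal RNA had been removed. Its members were chosen by their titles and column names, and they are 4 of the 26 libraries of the series, 2 undepleted and 2 Ribo-Zero Gold. HEK293T is an established human embryonic kidney line. Both groups carry the same labels apart from the depletion: the cells grew in DMEM with serum, were lysed with cycloheximide, were digested with RNase I down to monosomes, and gave fragments labelled as 15 to 35 nt. The label of the depleted pair names the legacy form of the Ribo-Zero Gold kit. The RiboCop and NEBNext pairs of the same table, 2 libraries each, were used where a direct comparison with Ribo-Zero Gold was needed. The labels do not say whether the 2 libraries of a group came from separate cultures, so the p-values measure only the spread between these libraries, which may be technical.

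Ribosome profiling sequences the short mRNA fragments that translating ribosomes protect from nuclease, and rRNA fragments cut from the ribosome itself usually make up most of such a library. Ribo-Zero Gold hybridises probes to cytoplasmic and mitochondrial rRNA and removes them on magnetic beads, so the depletion itself uses no nuclease. RiboCop also captures rRNA with probes on beads, whereas NEBNext covers rRNA with DNA probes and digests the hybrids with RNase H. The question the comparison answers is how far the footprint counts of coding sequences differ once rRNA has been taken out in this way. Only reads on coding sequences were in the table, so the amount of rRNA removed was not analysed here.

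The undepleted libraries held 120019 and 153462 counts and the Ribo-Zero Gold libraries 351370 and 421521, so depth moved with the group. All levels are shares of the counts on coding sequences, so a lower level is not a measured loss of molecules. A level of 3 counts, taken as the floor, corresponded to 25 and 19.5 counts per 1000000 counts of the library (CPM) undepleted and to 8.54 and 7.12 CPM after Ribo-Zero Gold. Of 8 markers of the HEK293 line, 6 (NEFM, NEFL, VIM, KRT18, LIN28B and IGF2BP1) had counts in every one of the 4 libraries, while PAX2 had 1 count in all and KRT8 at most 1 in a library. The summed level of these markers was 1725 to 2118 CPM undepleted and 1820 to 1930 CPM after Ribo-Zero Gold. Of 8 markers of K562 and erythroid cells only TAL1 was seen, with 2 counts in all. Of 4 fibroblast markers 3 had counts, 30 in all and mostly from COL1A1, summing to 25 to 32.6 CPM undepleted and to 28.5 CPM in each Ribo-Zero Gold library, and the 3 lymphocyte markers were at 0.

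Few coding sequences passed the test between Ribo-Zero Gold and undepleted libraries. Of 4410 genes tested with edgeR's quasi-likelihood test, 3 passed an adjusted p of 0.05, which is 0.068% of those tested, and all 3 were lower in the depleted libraries: PTMA, MT-CO3 and MT-ND4. No gene passed in the higher direction. At an unadjusted p under 0.05 there were 250 genes (5.67%), 138 lower (3.13%) and 112 higher (2.54%). Values of the 2 groups did not overlap, lower, for 18.3% of genes tested and, higher, for 18.2%.

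**Figure D1:**
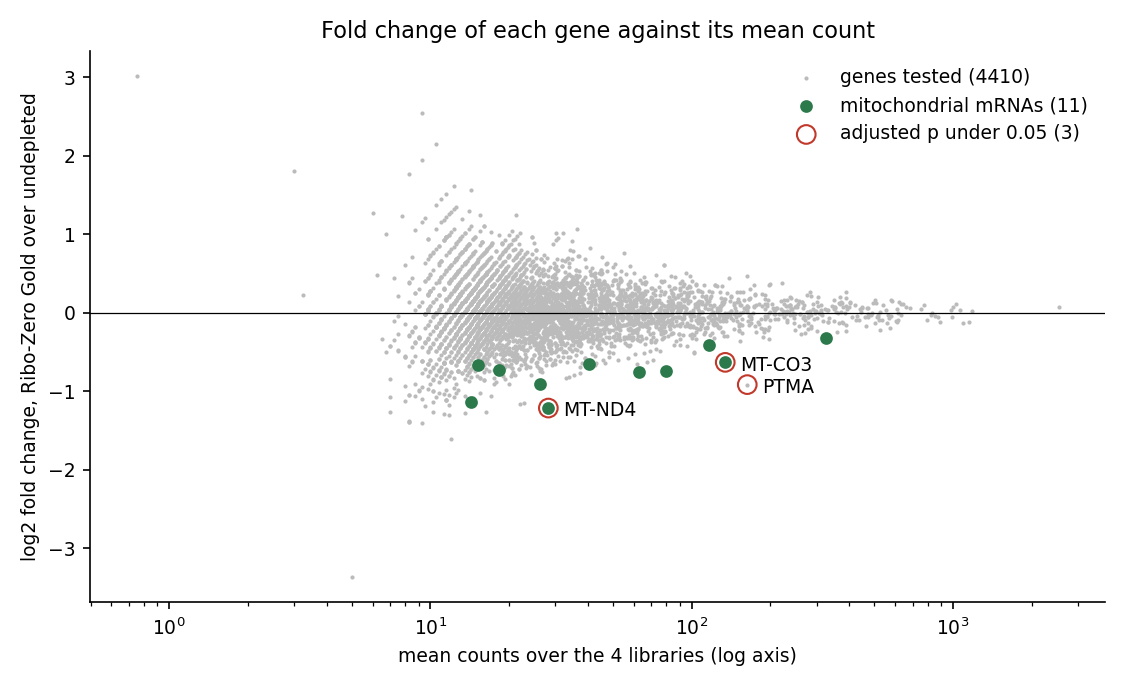
Each grey point is one of the 4410 genes tested, with its mean count over the 4 libraries on a log axis and its edgeR log2 fold change, Ribo-Zero Gold over undepleted, on the vertical axis. Green points are the 11 tested mitochondrial mRNAs, all below 0, and red rings mark the 3 genes past the adjusted threshold.

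The call with the smallest p was PTMA, which encodes prothymosin alpha, a small and highly acidic nuclear protein that binds histones. Its transcript lies on GRCh38 at chr2:231708516-231713536, plus strand. The codons of glutamate, the residue that fills much of such acidic stretches, consist of purines alone. The windows below show, for PTMA and 3 messages of other acidic nuclear proteins, the 150 nt of the coding sequence (GENCODE release 29, sense strand, 5′ to 3′) with the most purines, in steps of whole codons, with every run of at least 12 purines in capitals. They are shown because these messages, of which PTMA alone passed, are all rich in purines. Positions count from the first base of the start codon.
PTMA: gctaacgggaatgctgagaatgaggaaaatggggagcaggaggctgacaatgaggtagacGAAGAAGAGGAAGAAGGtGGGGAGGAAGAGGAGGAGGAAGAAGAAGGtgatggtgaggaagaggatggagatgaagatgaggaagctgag
PTMS: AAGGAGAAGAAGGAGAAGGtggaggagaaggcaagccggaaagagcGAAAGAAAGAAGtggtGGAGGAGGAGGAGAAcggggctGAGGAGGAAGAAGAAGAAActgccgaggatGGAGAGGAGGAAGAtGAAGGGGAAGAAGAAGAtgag
HMGN5: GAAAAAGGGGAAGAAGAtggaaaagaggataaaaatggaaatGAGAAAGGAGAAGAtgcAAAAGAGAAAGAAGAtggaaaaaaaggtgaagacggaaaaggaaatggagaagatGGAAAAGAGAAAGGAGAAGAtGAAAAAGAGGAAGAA
ANP32B: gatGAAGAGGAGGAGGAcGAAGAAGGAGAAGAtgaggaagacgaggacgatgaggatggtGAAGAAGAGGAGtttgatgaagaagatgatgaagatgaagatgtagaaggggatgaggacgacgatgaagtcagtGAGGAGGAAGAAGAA
The windows are positions 103 to 252 in PTMA, 52 to 201 in PTMS, 451 to 600 in HMGN5 and 496 to 645 in ANP32B. PTMS and HMGN5 lie at chr12:6766375-6770952, plus strand, and chrX:81113701-81201942, minus strand. ANP32B lies at chr9:97983361-98015943, plus strand. Purines make up 84% of the PTMA window, 88.7% in PTMS, 92% in HMGN5 and 84% in ANP32B.

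PTMA stood at 949.9 and 958 CPM in the undepleted libraries and at 541 and 477 CPM in the Ribo-Zero Gold libraries. The groups lay far apart beside the distance between replicates, with means of 954 ± 5.69 CPM and 509 ± 45.2 CPM (SD, n = 2 each). The log2 fold change was −0.91 with a standard error (SE) of 0.13, a 1.88-fold lower level (edgeR, adjusted p = 9.86e-09). PTMA was the one gene called under each way of leaving out a single library. Every library was also reduced to the lowest total of the table, in a single random draw. There the log2 fold change of PTMA was −0.67 (edgeR, adjusted p = 0.188) and no gene passed. The RiboCop libraries, also depleted on beads, held PTMA at 928 and 874 CPM, and the NEBNext libraries at 300.03 and 283 CPM.

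HMGN5, a nucleosome-binding HMG protein with a long acidic tail, stood at 158 and 137 CPM undepleted and at 71.2 and 61.7 CPM after Ribo-Zero Gold. Its groups did not overlap, but its log2 fold change of −1.14 (SE 0.32) did not pass (edgeR, adjusted p = 0.246). PTMS encodes parathymosin, the close relative of prothymosin alpha, and was named after its values were seen. It stood at 83.3 and 97.7 CPM undepleted and at 28.5 and 30.8 CPM after Ribo-Zero Gold, from 10 to 15 counts in each library. Its log2 fold change was −1.60 with an SE of 0.48 (edgeR, adjusted p = 0.358), so the depth could not settle a difference of this size.

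Other acidic messages had log2 fold changes nearer to 0. NCL encodes nucleolin, an abundant nucleolar protein with acidic tracts, and stood at 2283 and 2203 CPM undepleted and at 2006 and 1865 CPM after Ribo-Zero Gold. Its groups did not overlap, and its log2 fold change of −0.21 (SE 0.08) did not pass (edgeR, adjusted p = 0.709). ANP32B, an acidic histone chaperone, was named after its values were seen. It stood at 299.95 and 437 CPM undepleted and at 381 and 297 CPM after Ribo-Zero Gold, with overlapping groups and a log2 fold change of −0.16 (SE 0.18). NPM1, the nucleolar histone chaperone nucleophosmin, stood at 3274 and 3082 CPM undepleted and at 3222 and 3113 CPM after Ribo-Zero Gold. Between these overlapping groups the log2 fold change was −0.0033 (SE 0.07).

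**Figure D2:**
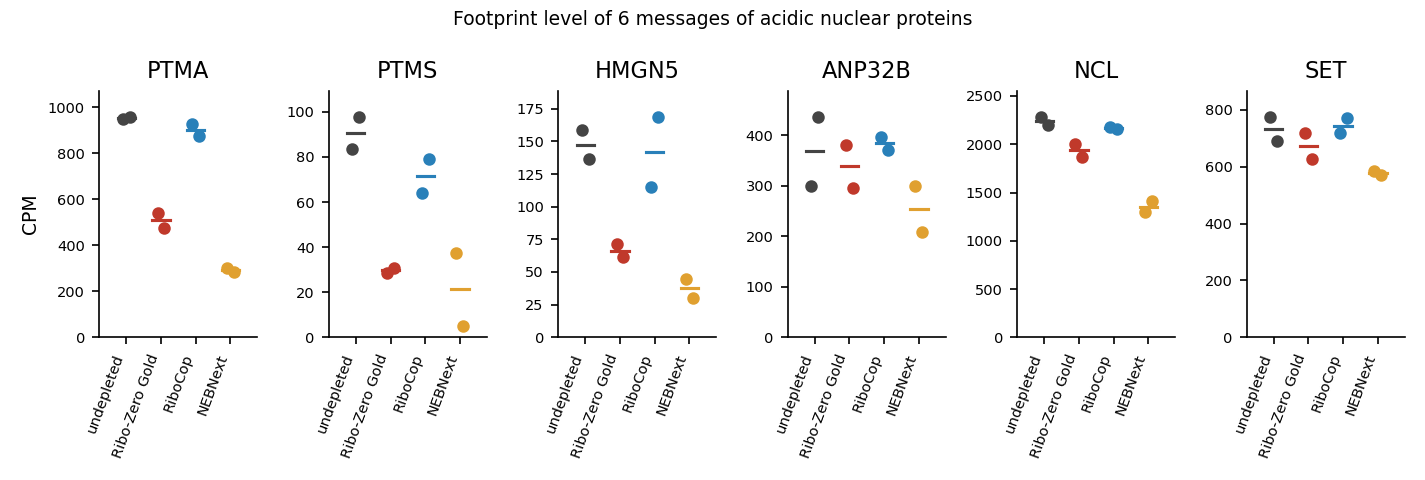
Footprint level in CPM (vertical axes, from 0, scaled per gene) of 6 messages of acidic nuclear proteins, with 1 point per library and a bar at the mean of the 2 libraries of each group. PTMA, PTMS, HMGN5 and NCL show the Ribo-Zero Gold pair below the undepleted and RiboCop pairs, while ANP32B and SET show overlap of the Ribo-Zero Gold and undepleted pairs. The NEBNext pair lies below the Ribo-Zero Gold pair in PTMA, HMGN5, NCL and SET. PTMS, ANP32B and SET were chosen after their values were seen.

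Across the whole list of 20 acidic histone chaperones and HMG proteins, all of them tested, PTMA was the one member that passed, and the list was chosen with its result known. There were 15 members with a negative and 5 with a positive log2 fold change, and the median was −0.17 against 0.01 over all genes tested. Groups did not overlap in 9 members on the lower side and 2 on the higher side. These were 45% and 10% of the list, beside 18.3% and 18.2% of all genes. The list took up 1.30% and 1.31% of all counts undepleted and 1.23% and 1.15% after Ribo-Zero Gold.

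The other 2 calls were mitochondrial mRNAs. The 13 mRNAs of the mitochondrial genome encode subunits of respiratory complexes I, III and IV and of the ATP synthase, complex V, and are translated inside the organelle by mitochondrial ribosomes, which have rRNAs of their own. MT-CO3 encodes a subunit of cytochrome c oxidase, complex IV, and lies at chrM:9207-9990, plus strand. MT-ND4 encodes a subunit of NADH dehydrogenase, complex I, and lies at chrM:10760-12137, plus strand. The windows below are the 150 nt with the most pyrimidines of each coding sequence, in steps of whole codons, positions 511 to 660 in MT-CO3 and 82 to 231 in MT-ND4. Runs of at least 8 pyrimidines are in capitals. They are shown because the mitochondrial calls sit at the opposite end of base composition from PTMA.
MT-CO3: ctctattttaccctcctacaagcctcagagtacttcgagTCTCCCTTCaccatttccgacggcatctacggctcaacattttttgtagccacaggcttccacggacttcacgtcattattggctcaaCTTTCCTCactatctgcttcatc
MT-ND4: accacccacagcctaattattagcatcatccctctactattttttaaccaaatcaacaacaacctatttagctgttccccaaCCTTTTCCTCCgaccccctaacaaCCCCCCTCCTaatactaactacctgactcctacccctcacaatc
Purines make up 33.3% of the MT-CO3 window and 32.7% of the MT-ND4 window, against 84% of the PTMA window.

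In complex IV, MT-CO3 stood at 717 and 678 CPM undepleted and at 441 and 455 CPM after Ribo-Zero Gold. The groups did not overlap, with means of 697 ± 27.5 CPM and 448 ± 10.2 CPM (SD, n = 2 each). It was lower by a log2 fold change of −0.63 with an SE of 0.14, a 1.55-fold lower level (edgeR, adjusted p = 0.026). MT-CO2 stood at 308 and 371 CPM undepleted and at 185 and 221 CPM after Ribo-Zero Gold, and its log2 fold change of −0.75 (SE 0.21) did not pass (edgeR, adjusted p = 0.242). MT-CO1, the catalytic subunit, stood at 1399.8 and 1512 CPM undepleted and at 1167 and 1179 CPM after Ribo-Zero Gold. With a log2 fold change of −0.32 (SE 0.10) it differed least among the 11 mitochondrial mRNAs tested.

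In complex I, MT-ND4 stood at 158 and 209 CPM undepleted and at 65.5 and 92.5 CPM after Ribo-Zero Gold. Its log2 fold change was −1.21 with an SE of 0.29, a 2.32-fold lower level (edgeR, adjusted p = 0.0393). Neither mitochondrial call was kept with any 1 of the 4 libraries left out, where the adjusted p was 0.139 to 0.395 for MT-CO3 and 0.071 to 0.911 for MT-ND4 (edgeR), nor with DESeq2, where it was 0.9999 for both. MT-ND5 stood at 399.9 and 456 CPM undepleted and at 231 and 282 CPM after Ribo-Zero Gold, and its log2 fold change of −0.74 (SE 0.18) narrowly missed the threshold (edgeR, adjusted p = 0.06). In all 3 of MT-ND1, MT-ND2 and MT-ND6 the groups did not overlap. Their log2 fold changes were −0.67, −1.13 and −0.73, from 9 to 25 counts a library, and none passed. MT-ND4L and MT-ND3 were too low to be tested. MT-ND4L had 4 and 3 counts undepleted and 9 and 8 after Ribo-Zero Gold, which are overlapping levels of 33.3, 19.5, 25.6 and 19.0 CPM. MT-ND3 went the other way, with 1 and 0 counts undepleted (8.33 CPM and 0) and 11 and 6 after Ribo-Zero Gold (31.3 and 14.2 CPM), and both undepleted values are at or under the floor.

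In complex III, MT-CYB, the cytochrome b gene, stood at 467 and 606 CPM undepleted and at 381 and 432 CPM after Ribo-Zero Gold, a log2 fold change of −0.41 (SE 0.16) that did not pass. In complex V, MT-ATP6 stood at 208 and 215 CPM undepleted and at 131 and 138 CPM after Ribo-Zero Gold, and MT-ATP8 at 125 and 176 against 56.9 and 102 CPM. Their log2 fold changes of −0.66 (SE 0.25) and −0.91 (SE 0.30) did not pass. The coding sequences of MT-ATP8 and MT-ATP6 overlap, as do those of MT-ND4L and MT-ND4, and how shared reads were assigned is not given in the sources used here.

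**Figure D3:**
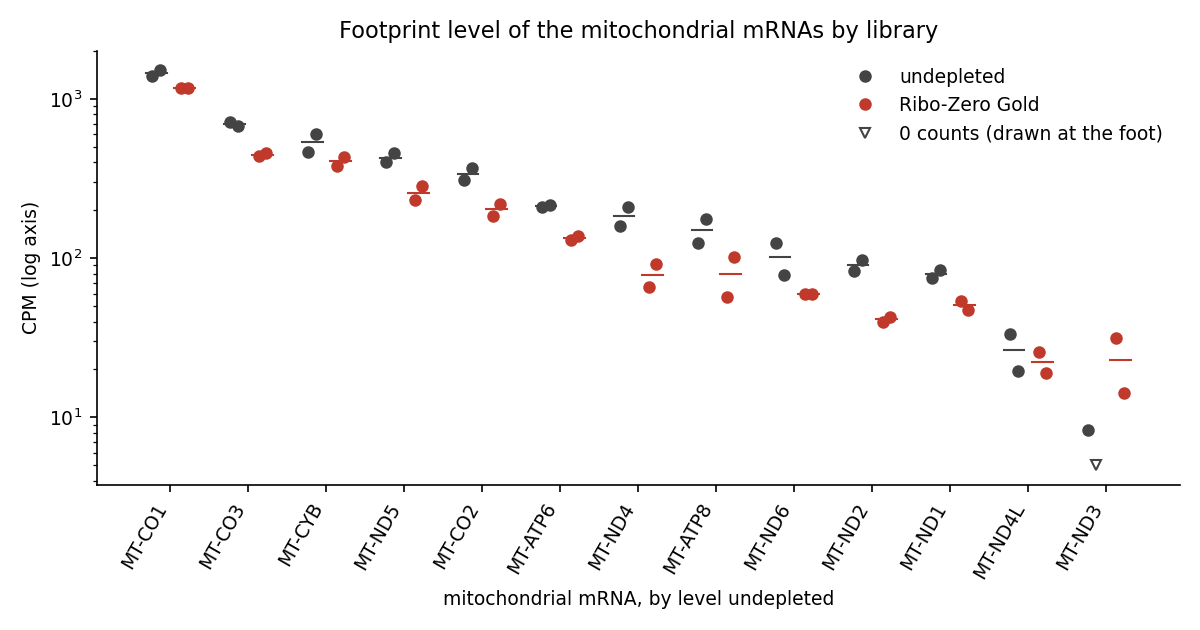
Footprint level in CPM (log axis, not corrected for length) of the 13 mitochondrial mRNAs in the 2 undepleted and 2 Ribo-Zero Gold libraries, with 1 point per library and a bar at each group's mean where both libraries had counts. In the 11 mRNAs tested both Ribo-Zero Gold points lie below both undepleted points, MT-ND4L overlaps, and MT-ND3 has 1 and 0 counts undepleted, the 0 drawn as an open triangle at the foot.

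Taken as a list, 11 of the 13 mitochondrial mRNAs passed the filter on low counts. In all 11 of these the Ribo-Zero Gold values lay below the undepleted values without overlap, against 18.3% of all genes tested. Of the 11, 2 passed the adjusted threshold, beside 0.068% of all genes, and 9 had an unadjusted p under 0.05 on the lower side, beside 3.13%. Their log2 fold changes ran from −1.21 to −0.32 with a median of −0.73. By complex the medians were −0.74 over 5 tested members of complex I, −0.63 over 3 of complex IV and −0.78 over 2 of complex V. Taking each depleted library over each undepleted one, the median lay at −0.73 and −0.59 for the 2 depleted libraries over the first undepleted library and at −0.71 and −0.69 over the second. No single library set the direction.

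All 13 mitochondrial mRNAs together took up 0.411% (exact Clopper-Pearson 95% interval 0.375% to 0.449%) and 0.450% (0.417% to 0.485%) of the counts undepleted. After Ribo-Zero Gold they took up 0.287% (0.269% to 0.305%) and 0.308% (0.292% to 0.326%). The intervals of the 2 groups do not overlap, but they cover counting error only. The group means were 0.431 ± 0.028% and 0.298 ± 0.015% (SD, n = 2 each), a share 30.9% lower. An exact two-sided permutation test over the libraries gave p = 0.333, which is the smallest p that 2 against 2 can give.

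The nuclear-encoded subunits of the respiratory complexes, 77 transcripts, lay near 0 as a list. Complex II was included through SDHA, SDHB, SDHC and SDHD, the last with both of its transcripts. All 77 were tested, none passed, and their median log2 fold change was 0.01, with 16 members (20.8%) not overlapping on the lower side and 18 (23.4%) on the higher side, near the 18.3% and 18.2% of all genes. ATP5B, the catalytic subunit of the ATP synthase, stood at 1916 and 1838 CPM undepleted and at 1884 and 1808 CPM after Ribo-Zero Gold, a log2 fold change of −0.02 (SE 0.09). ATP5A1, its alpha subunit, had a log2 fold change of 0.08 (SE 0.12). Of 78 proteins of the mitochondrial ribosome 72 were tested, none passed, and the median was 0.01, with 14 members (19.4%) not overlapping on each side, close to the shares of all genes. Among them MRPL3 had a log2 fold change of 0.36 (SE 0.19) and MRPL37 of 0.01 (SE 0.22).

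Genes translated by cytosolic ribosomes in other large classes also showed medians near 0. The 79 cytosolic ribosomal proteins had a median log2 fold change of 0.04 with none called, and 13 members (16.5%) did not overlap on the lower and 18 (22.8%) on the higher side, beside 18.3% and 18.2% of all genes. RPS4X stood at 3783 and 3590.5 CPM undepleted and at 3734 and 3831 CPM after Ribo-Zero Gold, and RPL5 had a log2 fold change of 0.10 (SE 0.08). The 37 translation factors had a median of 0.00 with none called, beside 0.068% of all genes. Of these, 12 (32.4%) did not overlap on the lower side, above the share of all genes, and 7 (18.9%) on the higher side. EEF1A1, the elongation factor that brings aminoacyl-tRNA to the ribosome, stood at 9632 and 9129 CPM undepleted and at 10399 and 9307 CPM after Ribo-Zero Gold. EEF2, which moves the ribosome along the message, had a log2 fold change of −0.12 (SE 0.07).

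None of the 25 cytosolic and ER chaperones was called, beside 0.068% of all genes, and their median was 0.06. Groups did not overlap in 3 members (12%) on the lower side and 8 (32%) on the higher side. The shares of all genes were 18.3% and 18.2%. HSPA8 and HSP90AA1, the constitutive Hsp70 and an Hsp90, had log2 fold changes of 0.03 and 0.12 (SE 0.07 each). The 16 glycolytic enzymes had a median of −0.03 with none called, and 1 (6.25%) lay lower and 3 (18.8%) higher without overlap. GAPDH stood at 4666 and 4275 CPM undepleted and at 4147 and 3983 CPM after Ribo-Zero Gold, a log2 fold change of −0.13 (SE 0.07), and ENO1 at −0.03 (SE 0.07). Of 14 genes for tubulins, actins and the actin-binding proteins CFL1 and PFN1, 13 were tested, with a median of 0.01 and none called. Without overlap, 2 (15.4%) lay lower and 1 (7.69%) higher. ACTB and ACTG1 lay at 0.02 and −0.06 (SE 0.07 each). Of 39 proteasome subunits 33 were tested, with a median of 0.08 and none called. Without overlap, 4 (12.1%) lay lower and 8 (24.2%) higher. PSMD2 and PSMB1 lay at −0.25 and 0.09 (SE 0.15 each). Of 72 replication-dependent histone genes 60 were tested, with a median of −0.00 and none called. Without overlap, 10 (16.7%) lay lower and 8 (13.3%) higher. The linker histones HIST1H1C and HIST1H1E lay at −0.12 and −0.04 (SE 0.07 each). Near-identical histone, actin and ribosomal protein genes can share reads, as PTMA, GAPDH and HNRNPA1 can with their processed pseudogenes, and the handling of such reads is not given in the sources used here.

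The 25 hnRNP and SR proteins, which bind and splice nuclear RNA, were the third list with a median below −0.05, at −0.09. There were 19 members with a negative and 6 with a positive log2 fold change, and none passed. Groups did not overlap in 7 members on the lower side (28%) and 1 on the higher side (4%), beside 18.3% and 18.2% of all genes. HNRNPA2B1 stood at 2483 and 2359 CPM undepleted and at 2032 and 2168 CPM after Ribo-Zero Gold, a log2 fold change of −0.20 (SE 0.08). HNRNPA1 overlapped between groups, at −0.06 (SE 0.08).

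**Figure D4:**
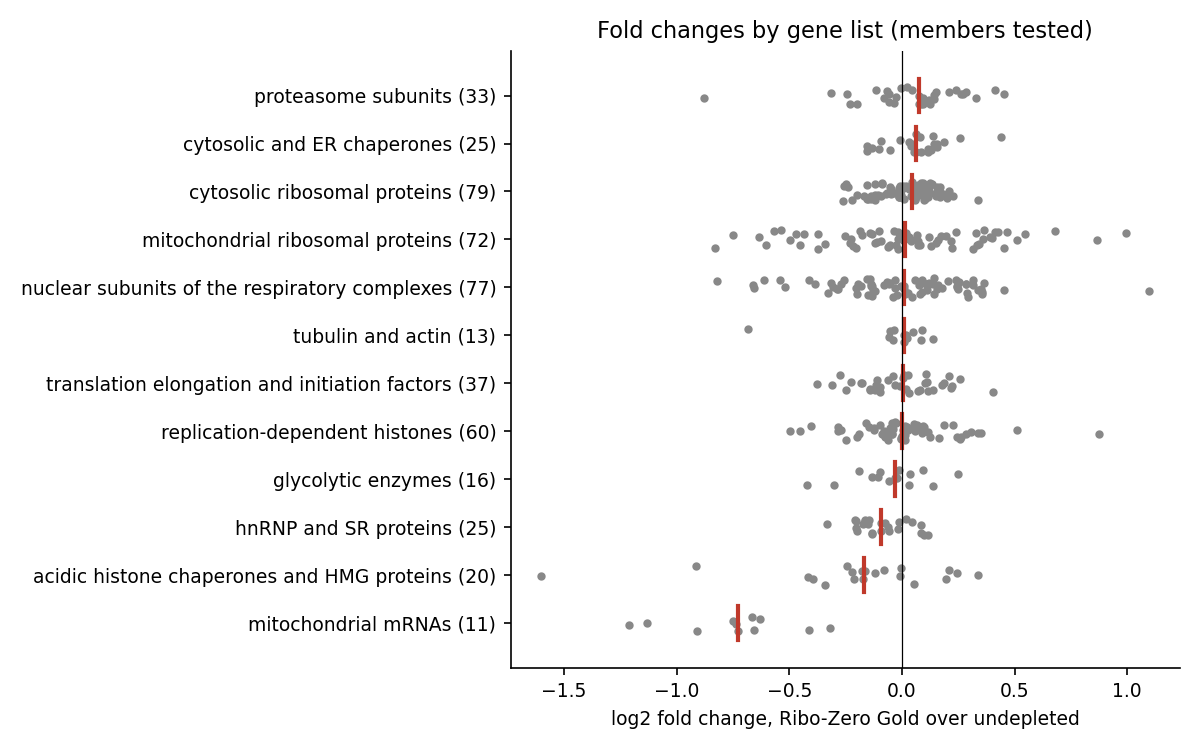
Each grey point is the log2 fold change, Ribo-Zero Gold over undepleted, of one tested member of a gene list, and the red bar is the list's median. The mitochondrial mRNAs have the lowest median of the 12 lists, −0.73, the acidic chaperones and HMG proteins follow at −0.17, and the highest is 0.08 for the proteasome.

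Restricted to the 439 genes whose mean over the 4 libraries reached 100 counts, the log2 fold change lay within 0.5 of 0 for 436 of 439 (99.3%), and PTMA, MT-CO3 and SF1 lay below. SF1, a splicing factor that recognises the branch point, stood at 442 and 547 CPM undepleted and at 373 and 330 CPM after Ribo-Zero Gold. The log2 fold change of −0.52 (SE 0.17) did not pass (edgeR, adjusted p = 0.464). On the lower side, the next smallest p-values in this range among genes whose groups did not overlap were those of MT-CO1, of ZNF703, a zinc finger protein, at −0.49 (SE 0.17), and of HNRNPD, which binds AU-rich elements, at −0.33 (SE 0.12). None of these passed.

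On the higher side, the 6 genes of smallest p among those averaging 100 counts or more with groups that do not overlap had log2 fold changes from 0.26 to 0.47, and none passed. XPO1, the main receptor for nuclear export of proteins, stood at 492 and 476 CPM undepleted and at 700.1 and 645 CPM after Ribo-Zero Gold, a log2 fold change of 0.47 with an SE of 0.15 (edgeR, adjusted p = 0.464). HSPE1, the co-chaperonin of the mitochondrial matrix, stood at 399.9 and 437 CPM undepleted and at 552 and 586 CPM after Ribo-Zero Gold, at 0.44 (SE 0.16). H2AFZ, the histone variant H2A.Z, lay at 0.39 (SE 0.13) and SLC25A3, the mitochondrial phosphate carrier, at 0.37 (SE 0.13). KPNA2, an importin alpha, lay at 0.35 (SE 0.13) and HIST1H3H, a histone H3 gene, at 0.26 (SE 0.10).

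The spread across these 439 genes was also measured as the SD of the log2 ratio of 2 libraries with the counting variance taken out. It was 0.117 ± 0.023 (SD over 4 pairs, range 0.097 to 0.149) between a Ribo-Zero Gold and an undepleted library. Between the 2 undepleted libraries it was 0.074, and between the 2 Ribo-Zero Gold libraries 0.044. It was 0.040 between the RiboCop libraries and 0.109 between the NEBNext libraries, the last within the range of the 4 pairs that cross the groups. The 4 pairs share libraries with each other, so no test was made of this difference. The median SE of a fold change was 0.09 for genes averaging 300 counts or more, 0.15 from 100 to 300, 0.25 from 30 to 100 and 0.41 from 10 to 30. Small changes in the lower classes were therefore not detectable at this depth.

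The Ribo-Zero Gold libraries were next compared directly with the RiboCop libraries. Of 4410 genes 7 passed (0.159%), all higher with RiboCop: PTMA, HMGN5, MT-CO3, MT-CYB, MT-ND5, MT-ND4 and BTBD2. At an unadjusted p under 0.05 there were 275 (6.24%). DESeq2 called PTMA alone, and with any 1 of the 4 libraries left out edgeR called 1 to 5 genes, PTMA among them each time. MT-ND4 lost its call with any 1 of the 4 left out (edgeR, adjusted p = 0.059 to 0.83). The comparison shares the Ribo-Zero Gold libraries with the one above, so it is no independent evidence of where these genes stand. PTMA was higher by 0.82 on the log2 scale, with an SE of 0.12 (edgeR, adjusted p = 1.1e-08), MT-CO3 by 0.67 (SE 0.12) and MT-CYB by 0.71 (SE 0.13). MT-CO3 stood at 544 and 819 CPM in the RiboCop pair, and without the second of these it was higher by 0.27 (edgeR, adjusted p = 0.97). HMGN5, at 115 and 169 CPM with RiboCop, was higher by 1.17, with an SE of 0.28 (edgeR, adjusted p = 0.0171). BTBD2, a BTB-domain protein, stood at 75.0 and 130.3 CPM undepleted, 56.9 and 45.1 CPM with Ribo-Zero Gold, and 134 and 127 CPM with RiboCop, where it was higher by 1.35 (SE 0.31). The 11 tested mitochondrial mRNAs had a median of 0.71 and 4 of them were called. Their share of counts was 0.392% and 0.460% with RiboCop, beside 0.411% and 0.450% undepleted.

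Against NEBNext, the nuclease kit, 180 of 4410 genes passed (4.08%), 99 higher (2.24%) and 81 lower (1.84%) with NEBNext than with Ribo-Zero Gold. DESeq2 called 70, and edgeR called 117 without the second Ribo-Zero Gold library and 60 without the second NEBNext library. This comparison shares the Ribo-Zero Gold libraries too. The mitochondrial mRNAs were higher with NEBNext: their median log2 fold change, NEBNext over Ribo-Zero Gold, was 1.38 and 10 of 11 were called higher. MT-ND6 was the exception, at 0.02 (SE 0.40). MT-CO3 rose by 1.495 (SE 0.12), to 1103 and 1358 CPM, and MT-ND4 by 2.33 (SE 0.22), to 270.03 and 492 CPM. PTMA went the other way and was lower still with NEBNext, at −0.79 on the log2 scale with an SE of 0.17 (edgeR, adjusted p = 0.000191). In the acidic list 6 members were called lower and 1 higher with NEBNext, and the median was −0.31. NPM1, which lay at −0.0033 for Ribo-Zero Gold over undepleted, was lower with NEBNext than with Ribo-Zero Gold by a log2 fold change of −0.49 (SE 0.08). Outside both groups, the smallest p-values were taken among genes averaging 100 counts or more over the 8 libraries. They were those of GAPDH, higher by 0.59 (SE 0.06), and HIST1H2AM, a histone H2A gene, higher by 0.95 (SE 0.11). On the lower side they were HNRNPA1 at −0.75 (SE 0.09), RPL32 at −1.08 (SE 0.13) and RPS24 at −0.79 (SE 0.11).

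Base composition was then set beside the fold changes as a description. Of the genes tested, 4284 had a coding sequence in the annotation, with a median purine share of 53.4%, and with 1% of genes below 43.7% and 1% above 64.5%. PTMA, at 74.5%, was the 4th highest, behind PTMS at 80.4%, HMGN5 at 80.02% and RPL41, a ribosomal protein of the large subunit, at 77.3%. RPL41 was named for its sequence, and its log2 fold change was −0.26 (SE 0.16) with groups that did not overlap. The mitochondrial mRNAs other than MT-ND6, 12 in all, lay between 40.1% and 44.6%. MT-ND6, which is encoded on the other strand of the mitochondrial genome, had 55.2% purines. Its log2 fold change of −0.73 (SE 0.37) did not pass (edgeR, adjusted p = 0.846).

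Among 2628 genes averaging 20 counts or more, the 29 with purine shares of 65% or more had a median log2 fold change of −0.25, with 25 negative and 4 positive. Of the 29, 13 (44.8%) lay below the undepleted values without overlap and 2 (6.90%) above, beside 18.3% and 18.2% of all genes tested. Leaving out the 6 that belong to the acidic list gave 23 genes with a median of −0.25, 9 of them (39.1%) without overlap on the lower side. HMGN5 and its relative HMGN3, another nucleosome-binding HMG protein, are not on that list and were among the 9, at log2 fold changes of −1.14 (SE 0.32) and −0.80 (SE 0.35) that did not pass. HMGN3 was named after its values were seen. In the class that holds most genes, 50% to 55% purines, the median was 0.03 over 1381 genes, and 17.3% lay lower without overlap. At the other end, 48 genes with 40% to 45% purines had a median of −0.14 and 19 (39.6%) lay lower without overlap. Leaving out the 8 mitochondrial mRNAs among them gave 40 genes with a median of −0.12, of which 11 (27.5%) lay lower without overlap. Between the 2 replicates of a group the medians of both end classes stayed between −0.07 and 0.07. Over all 2628 genes, Spearman's rho between purine share and the log2 fold change was −0.02.

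GC share showed a shallow gradient over many genes. The 158 genes under 40% GC had a median log2 fold change of 0.13. Of these, 30.4% lay above the undepleted values without overlap and 8.86% below, beside 18.2% and 18.3% of all genes tested. The median was 0.06 from 40% to 45%, 0.03 from 45% to 50%, −0.01 from 50% to 55% and −0.06 from 55% to 60%. Above that it was −0.05 from 60% to 65% and −0.04 over the 82 genes from 65% up. In this last class the median between the undepleted replicates was −0.115. Its medians for each depleted library over each undepleted one ran from −0.173 to 0.020. Spearman's rho between GC share and the log2 fold change was −0.19 over 2628 genes, and it lay between −0.18 and −0.10 for each depleted library over each undepleted one. Between replicates it was −0.01 for the undepleted and −0.06 for the Ribo-Zero Gold pair. The genes share their libraries and depth, so this is a description across genes, with no test. The mitochondrial mRNAs, at 39.7% to 47.7% GC, lay on the low-GC side, where the medians of all genes were above 0.

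**Figure D5:**
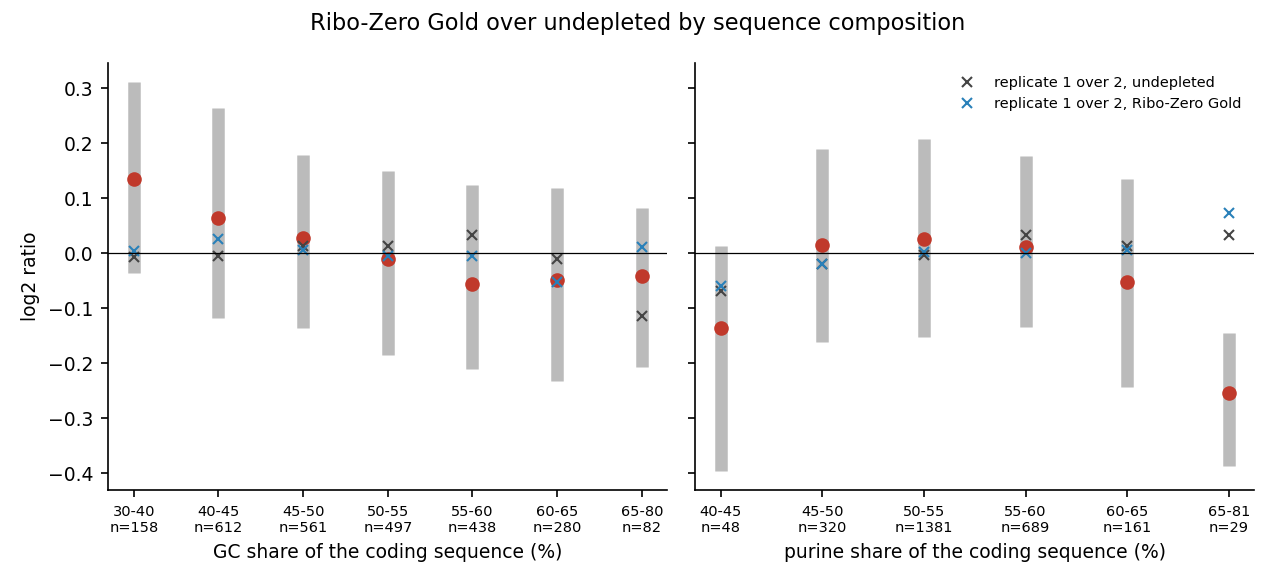
Median log2 fold change, Ribo-Zero Gold over undepleted (red points), with the middle 50% of genes (grey bars), for genes averaging 20 counts or more by GC share (left) and purine share (right) of the coding sequence in percent, with n genes per class. Crosses are the medians of replicate 1 over replicate 2 within each group: the GC classes run from 0.13 down to −0.06, and the highest purine class lies at −0.25.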

How the data were processed

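Ribosome footprints were counted in 2 undepleted and 2 Ribo-Zero Gold libraries of HEK293T cells, with the RiboCop and NEBNext pairs of the same table in the fit. The authors deposited raw read counts per coding sequence, 1 transcript per row and 19478 rows, per the file headers. STAR, CASAVA 1.8 and GRCh38 (hg38) are named, without a role, in the submitters' processing notes. Read filters, duplicates, reads that match several genes and the annotation are not given in the sources used here. PCR copies of a molecule may have been counted more than once, so the intervals and the floor reflect counting error alone. The deposited normalized table holds the same rows and was not used.

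Samples were grouped by title. The members and gene lists were chosen with earlier results of these data known, so no list was tested as a set and no p was adjusted over a list alone. All 8 libraries of the table (120019 to 421521 counts) entered 1 edgeR 4.0.16 fit (R 4.3.3) with 1 term per group, TMM normalization, the quasi-likelihood test and a low-count filter (filterByExpr, minimum count 10, its default), with Benjamini-Hochberg adjustment over 4410 genes. A standard error was obtained by dividing the size of the log2 fold change by the square root of F. The fit was also run on simulated counts with 200 genes changed and a spread common to all genes, a simpler setting than these data. CPM are counts per 1000000 of the library's counts, not corrected for length. The chi-square per degree of freedom between replicates was 1.04 undepleted (p = 0.047), 1.07 with Ribo-Zero Gold (p = 6.66e-05), over genes whose pair summed to 20 counts or more, 1.03 with RiboCop (p = 0.103) and 1.20 with NEBNext (p = 8.74e-16). Over these genes together, no difference beyond sampling noise was detected between the RiboCop libraries, though single genes can differ. They carry different barcodes and totals and were kept as 2.

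Coordinates and coding sequences come from GENCODE release 29 on GRCh38, and the authors may have used another annotation; 97.51% of transcripts matched with their version. The genes named are those called, all 13 mitochondrial mRNAs, the 6 of smallest p in each direction among genes averaging 100 counts or more with groups that do not overlap, the 2 most abundant of each other list, those called against RiboCop and the 3 of smallest p in each direction against NEBNext. The last were taken among genes averaging 100 counts or more over the 8 libraries. Other genes named are marked where they appear. The share of acidic residues, planned as a sequence feature, is not reported here. Library pair ratios add 1 CPM to each value. Alternatives were other normalizations and filters, DESeq2 1.42.0, the 4 libraries alone, a replicate block, and each library left out; with 1 library left in a group, it is assumed to vary like the other groups. The block in a fit of the 4 libraries, the libraries of the other kits left out and the reduction of every library to the lowest total were added after seeing the data. The reduction was a single random draw.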

Additional observations from a re-analysis of the deposited data

How the results depend on the processing

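For Ribo-Zero Gold against undepleted, 3 genes were called, and 3 with DESeq2 size factors, total count scaling, the replicate block or a mean of at least 50 counts. The number was 1 with DESeq2 and with no filter, and 5 with the 4 libraries alone, with or without the replicate block, where MT-ND5 and EN1 joined (edgeR, adjusted p = 0.0482 for both without the block). It was 1 with any 1 library left out, where the filter also lets more genes in, and 0 with every library reduced to the lowest total, where 173 genes had an unadjusted p under 0.05. The causes of these changes were not tested. EN1 passed the low-count filter only through the undepleted pair, the group where it is high. PTMA was the gene called in each case with 1 call, and it was lost in the last alone.

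For RiboCop against Ribo-Zero Gold the 7 calls became 1 with DESeq2, 4 with no filter, 1 to 5 with a library left out and 1 at the lowest total. For NEBNext the 180 became 70 with DESeq2, 60 to 171 with a library left out and 87 at the lowest total. The causes were not tested. The median of the mitochondrial mRNAs, -0.73, was -0.60 with no filter, -0.64 over the 5 members with a mean of at least 50 counts and -0.60 to -0.70 with a library left out. The spread beyond counting, 0.117, was 0.083 over genes with at least 200 counts, 0.069 as a scaled median absolute deviation, and 0.100 to 0.133 with a library left out. The difference in mitochondrial share, -0.133 percentage points, ran from -0.113 to -0.153.

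Same-numbered libraries of the 2 groups share only a number; their deviations from the group means correlated at r = 0.164 over 439 genes. In the fit of all 8 libraries the replicate block changed no call of a named gene other than MT-ND4 against RiboCop (log2 1.01, edgeR, adjusted p = 0.0601).

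Of 769 values of named genes under alternatives, 688 kept direction and side of the threshold, 47 lost a call, 3 gained one and 31 changed sign, the last all for Ribo-Zero Gold against undepleted, in 16 genes not called in that comparison. With no filter these were ATP5B 0.046, NPM1 0.066, ENO1 0.037, ACTG1 0.014, HNRNPA1 0.0069, HIST1H1E 0.031, RPL32 0.022 and RPS24 0.0028. With DESeq2 it was MRPL37 -0.014, and at a mean of at least 50 counts MRPL37 -0.0024. At the lowest total they were ATP5B 0.022, MRPL37 -0.11, RPS4X -0.024, RPL5 -0.0092, HSPA8 -0.017 and ACTG1 0.032. With a library left out, each range below holds values that changed sign and values that did not. Values ran from -0.059 to 0.0052 for ATP5B, -0.014 to 0.22 for ATP5A1, -0.29 to 0.32 for MRPL37, -0.035 to 0.037 for NPM1, -0.018 to 0.15 for EEF1A1, -0.010 to 0.10 for HSPA8, -0.068 to 0.0067 for ENO1, -0.049 to 0.10 for ACTB, -0.12 to 0.0072 for ACTG1, -0.14 to 0.022 for HNRNPA1 and -0.49 to 0.0016 for HIST1H2AM.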

Other observations

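The values below belong to genes that fall outside the rule for named genes and were chosen after their values were seen. None passed the adjusted threshold for Ribo-Zero Gold against undepleted in the fit of all 8 libraries. EN1, a homeobox transcription factor, had 7 and 9 counts undepleted and 2 and 2 counts after Ribo-Zero Gold, although the latter libraries are deeper. It had 2 and 1 counts with RiboCop and 1 and 1 with NEBNext, so the undepleted pair stood above all 6 depleted libraries. All 6 depleted values are at or under the floor of 3 counts. At 58.3 and 58.6 CPM, the undepleted pair alone carried EN1 past the low-count filter, so its test is no support for a difference.

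EIF3J, a subunit associated with the initiation factor eIF3, stood at 117 and 163 CPM undepleted and at 76.8 and 52.2 CPM after Ribo-Zero Gold. Its log2 fold change was -1.16 with an SE of 0.33 (edgeR, adjusted p = 0.246), and its coding sequence holds 65.8% purines. GSTP1, a glutathione transferase, stood at 299.95 and 384 CPM undepleted and at 199 and 221 CPM after Ribo-Zero Gold, a log2 fold change of -0.72 with an SE of 0.20 (edgeR, adjusted p = 0.246). HMGN3, another nucleosome-binding HMG protein, had 68.0% purines and a log2 fold change of -0.80 (SE 0.35). The groups did not overlap in any of these genes.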
